A study of Mus musculus with 7 samples.

Results

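Polyoma middle T antigen is a membrane-bound viral oncoprotein with no enzyme activity of its own, and it transforms mammary epithelium by gathering host signalling proteins. Transcripts of 9 such host genes were described here in 3 Met1 and 4 DB7 mouse mammary tumours: the Src family kinase genes Src, Yes1 and Fyn, the adaptor genes Shc1 and Grb2, the PI3K subunit genes Pik3ca and Pik3r1, and the kinase genes Akt1 and Akt2. Members were all probe sets of the deposited array table whose single platform gene symbol is one of these, which gave 19 probe sets for 9 genes of 12393 genes on the array. All samples were transplant tumours, from which total RNA was labelled with biotin and hybridised to 1-colour Affymetrix arrays, each array giving 1 sample. The sample labels name Met1 and DB7 transplants, whereas the series' design text speaks of outcrossed animals, and the sample labels were followed. The labels give no host strain, host age or treatment, and they do not say whether 1 animal gave 1 array. The p-values therefore describe the scatter among these 7 arrays, part of which may be technical.

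As background not stated in the labels, both lines are transplantable lines that go back to mice with a middle T transgene under the mouse mammary tumour virus promoter. Met1 carries the intact protein, and DB7 descends from animals whose middle T lacks the tyrosines that recruit PI3K. Each line therefore stands for 1 tumour of origin. The form of the transgene and every other difference between the lines cannot be told apart in this comparison.

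Middle T binds Src, Yes and Fyn through protein phosphatase 2A, and these kinases then phosphorylate tyrosines on middle T itself. The phosphorylated sites recruit the adaptor Shc, which brings in Grb2 and the Ras pathway, and the regulatory subunit of PI3K, which brings in the catalytic subunit and leads to activation of Akt. These steps act on proteins, and the arrays measured transcripts only.

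The 2 members with the largest differences between the lines were Pik3r1 and Grb2, and the RefSeq windows around their annotated starts (build GRCm38.p6, 250 bases before to 50 after each start) are shown for that reason. RefSeq gave 2 such windows for each of these genes. Capitals mark the matches, on either strand, to GGGCGG (the GC box), CCAAT, TTCNNNGAA (the STAT motif) and GTAAACA (a FOXO motif). The Pik3r1 windows lie on the minus strand at chr13:101768168-101768467 and chr13:101692581-101692880, and the Grb2 windows on the minus strand at chr11:115699879-115700178 and chr11:115699485-115699784.
Pik3r1 outer start: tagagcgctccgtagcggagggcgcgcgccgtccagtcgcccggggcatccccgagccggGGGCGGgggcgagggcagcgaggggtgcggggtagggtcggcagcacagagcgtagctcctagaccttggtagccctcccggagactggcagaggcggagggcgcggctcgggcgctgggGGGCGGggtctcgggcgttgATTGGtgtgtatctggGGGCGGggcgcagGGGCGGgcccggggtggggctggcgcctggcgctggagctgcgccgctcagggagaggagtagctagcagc
Pik3r1 inner start: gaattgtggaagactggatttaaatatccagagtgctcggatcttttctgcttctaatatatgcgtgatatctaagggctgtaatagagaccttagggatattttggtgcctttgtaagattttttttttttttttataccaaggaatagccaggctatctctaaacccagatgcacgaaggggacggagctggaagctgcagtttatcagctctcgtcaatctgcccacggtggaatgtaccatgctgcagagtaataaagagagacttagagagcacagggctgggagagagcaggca
Grb2 first window: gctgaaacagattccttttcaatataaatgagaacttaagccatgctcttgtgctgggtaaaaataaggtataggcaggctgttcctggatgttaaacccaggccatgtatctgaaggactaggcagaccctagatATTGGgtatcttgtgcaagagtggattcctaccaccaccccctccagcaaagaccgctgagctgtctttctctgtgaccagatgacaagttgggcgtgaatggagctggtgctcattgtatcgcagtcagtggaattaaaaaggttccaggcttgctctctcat
Grb2 second window: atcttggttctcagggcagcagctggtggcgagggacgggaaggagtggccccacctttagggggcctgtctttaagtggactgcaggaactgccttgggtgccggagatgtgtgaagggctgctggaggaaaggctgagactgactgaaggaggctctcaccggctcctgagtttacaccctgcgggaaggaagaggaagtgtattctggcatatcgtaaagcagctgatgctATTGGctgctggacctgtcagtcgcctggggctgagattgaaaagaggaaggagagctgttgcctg

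The 2 Pik3r1 windows differed in composition. The outer one was 75.7% G and C and held 4 matches to GGGCGG and 1 to CCAAT, and the inner one was 43.7% G and C and held no match to any of the 4 motifs. Each Grb2 window held 1 CCAAT match. Of all 32851 windows of 300 bases in the table, 35.7% held GGGCGG, 37.4% CCAAT, 8.3% TTCNNNGAA and 3.65% GTAAACA. Among the 16 windows of the 9 members, TTCNNNGAA occurred once, in a window of Akt2, and GTAAACA once, in a window of Akt1. No matches of these motifs overlapped in the windows printed. A match is a description of the letters and not evidence of a bound factor.

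Pik3r1 was higher in Met1 at all 3 of its probe sets. Grb2 was lower at 1 of 2, by 1.78-fold, and Src at 1 of 2, by 1.54-fold. Pik3ca and Akt2 were lower by smaller amounts, and no tested probe set of Yes1, Fyn, Shc1 or Akt1 passed. Averaged over tested probe sets, Src differed by -0.44, Grb2 by -0.54, Pik3ca by -0.32, Akt2 by -0.28 and Pik3r1 by 1.24 (limma on gene means, adjusted p = 0.0239, 0.00147, 0.0188, 0.0293 and 0.000157). The Pik3r1 mean includes a probe set tested through Met1 alone. Yes1, Fyn, Shc1 and Akt1 did not pass by their means. Values are probe set summaries taken to be log2 from their range, every fold rests on that base, and differences are Met1 minus DB7 on that scale. Adjusted p-values of single probe sets are limma's after Benjamini-Hochberg adjustment over all 11704 tested probe sets, unless an alternative that tested another set is named. The gene means were adjusted in a fit of their own. A probe set was tested where it lay above the array median on at least 3 of 7 arrays. Of the 19 member probe sets 17 were tested, and 9 of these passed at 0.05 (52.9%, where 31.0% of all tested probe sets passed). Higher in Met1 were 3, all of Pik3r1 (13.4% over the array), and lower were 6 (17.6% over the array), of Grb2, Src, Pik3ca and Akt2. One of the 3 higher, 1425514_at, lay above the median on Met1 arrays only, so its being tested and its difference are not independent. It is included in the counts of member probe sets given here, which are to that extent not independent of the filter. Over the array 451 of the 11704 tested probe sets passed the filter through 1 line alone, and 399 of them were called. Probe sets of 1 gene are not independent. By the brightest tested probe set of each gene, 4 of the 9 genes passed, beside 30.9% of 7482 genes, with 1 higher (13.0% of all genes) and 3 lower (17.9%). The groups did not overlap at 11 of the 17 probe sets, beside 39.4% over the array. The median absolute difference was 0.28 over the 17 and 0.19 over the array. Several of the lower calls were narrow. Under median centring of the arrays 5 of the 17 passed (29.4%, with 29.6% over the array), the 3 of Pik3r1 and 1 each of Grb2 and Src. Without DB7 1 and DB7 4 also 5 of 17 passed (31.7% over the array). In each fit that left out Met1 1, Met1 2 or Met1 3, 4 of 17 passed (23.5%, with 23.5%, 21.5% and 21.1% over the array), namely the 3 of Pik3r1 and Grb2 1449111_a_at. Leaving out DB7 1, DB7 2, DB7 3 or DB7 4 gave 6 (35.3%, with 32.5%, 29.5%, 25.7% and 27.6% over the array). In bulk tumour RNA, fewer cells of a type and less RNA per cell cannot be told apart.

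**Figure D1:**
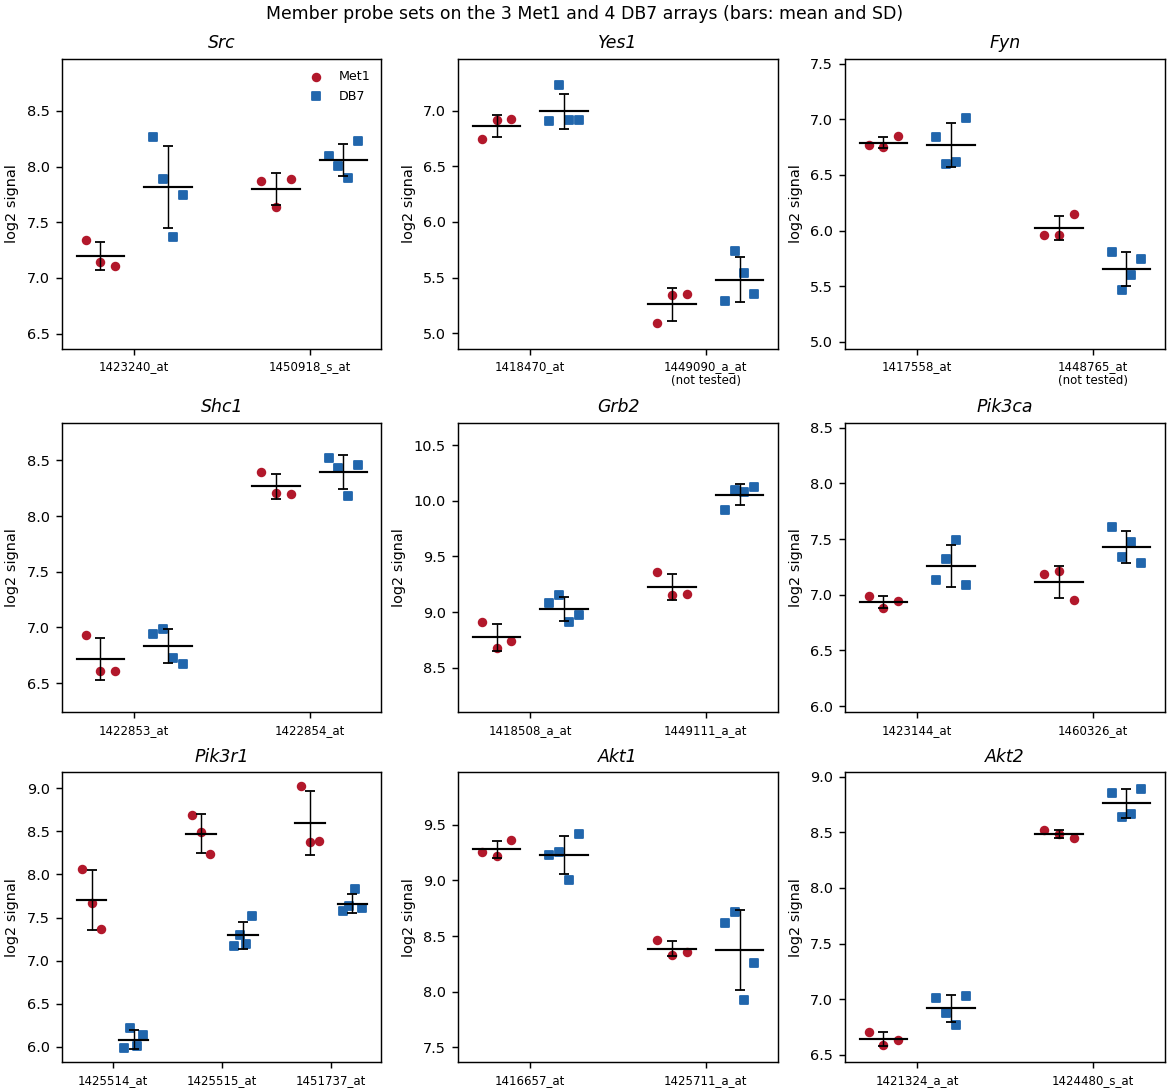
Log2 signal (vertical axes) of the 19 member probe sets on each array, with Met1 as red circles (n = 3) and DB7 as blue squares (n = 4); horizontal bars are means and error bars SD. All 3 Pik3r1 probe sets lie higher in Met1 without overlap, and the Grb2 probe set 1449111_a_at lies between 9.15 and 9.36 in Met1 and between 9.92 and 10.13 in DB7.

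Facts of the arrays bear on all members. Array medians lay between 6.53 and 6.61, and correlations across probe sets were 0.994 to 0.996 within Met1, 0.986 to 0.992 within DB7 and 0.967 to 0.972 between the lines. The labelled tissue was checked against 8 epithelial markers, of which Krt18, Krt8, Epcam and Krt7 were high on every array and Krt14 was below the array median on all 7. The mean of the 8 was 8.67 to 8.87 in Met1 and 9.04 to 9.18 in DB7 (difference -0.38, exact permutation test, two-sided, p = 0.0286, the smallest that 35 divisions allow), with 4 of 6 tested markers called lower in Met1 and none called higher. The lower ones were Krt7 (-1.79), Krt18 (-1.01), Epcam (-0.48) and Krt8 (-0.32). Cdh1, Krt5, Krt19 and Krt14 differed by 0.06, 0.17, 0.15 and 0.18, and Krt19 and Krt14 were not tested. The mean of 6 B and plasma cell markers was 7.18 in DB7 1 and 7.51 in DB7 4, against 5.73 to 6.05 on the other 5 arrays, although 3 of the 6 lay below the array median everywhere. For fibroblast markers the mean was 8.92 to 9.63 in Met1. It reached 9.71 in DB7 1 and 9.09 in DB7 4 but 8.47 in DB7 2 and 8.04 in DB7 3, and the macrophage mean of DB7 was likewise highest in DB7 1 and DB7 4 (9.21 and 8.82, against 8.21 and 8.33). Exact two-sided permutation p-values between the lines were 0.114 for T and NK cell, 0.2 for B cell, 0.314 for macrophage, 0.429 for fibroblast, 0.6 for endothelial, 0.771 for adipocyte and 0.0857 for muscle markers.

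The kinase gene Src was lower in Met1 by 1 of its probe sets. Src encodes the founding member of the family and the first cellular kinase found with middle T. Probe set 1423240_at measured 7.34, 7.14 and 7.10 in Met1 1 to 3 and 8.26, 7.89, 7.37 and 7.74 in DB7 1 to 4. Every DB7 array lay above every Met1 array, but DB7 3 exceeded Met1 1 only narrowly. The difference was -0.62 (SE 0.18; limma, adjusted p = 0.0299), a 1.54-fold lower level. The second probe set, 1450918_s_at, measured 7.87, 7.63 and 7.89 against 8.10, 8.002, 7.90 and 8.23. These groups again did not overlap, by a narrow margin between Met1 3 and DB7 3. Its difference of -0.26 (SE 0.10; limma, adjusted p = 0.0929) did not pass, and its suffix marks sequence shared with other transcripts.

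The Src call depended on single arrays. The adjusted p of 1423240_at in limma was 0.0548 without Met1 1, 0.0994 without Met1 2, 0.104 without Met1 3, 0.0664 without DB7 2 and 0.0505 without DB7 4. It passed without DB7 1 or without DB7 3. The highest value came from DB7 1, an array with high B cell and fibroblast marker means, and without DB7 1 and DB7 4 the difference was -0.43 (limma, adjusted p = 0.0796). DB7 4, with a B cell mean of 7.51, measured 7.74, below the 7.89 of DB7 2, where that mean was 5.88. The part of B cells and fibroblasts in the Src signal was not tested.

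Yes1 and Fyn, which encode the 2 other family members known to bind middle T, gave no call. Yes1 at 1418470_at measured 6.74, 6.92 and 6.92 in Met1 and 6.90, 7.23, 6.92 and 6.92 in DB7. The groups overlapped, with DB7 2 above all others. The difference was -0.13 (95% confidence interval -0.36 to 0.10; limma, adjusted p = 0.375). The second Yes1 probe set, 1449090_a_at, lay below the median on all 7 arrays and was not tested (5.26 ± 0.15 against 5.48 ± 0.20, SD, n = 3 and 4). Fyn at 1417558_at measured 6.77, 6.75 and 6.85 in Met1 and 6.84, 6.596, 6.62 and 7.01 in DB7. Its Met1 values lay inside the DB7 range, and the difference was 0.02 (95% confidence interval -0.23 to 0.27; limma, adjusted p = 0.904). The fainter Fyn probe set, 1448765_at, was not tested because it too lay below the median everywhere. There the groups did not overlap, at 5.96, 5.96 and 6.14 in Met1 and 5.81, 5.47, 5.60 and 5.75 in DB7, a difference of 0.37 (SE 0.10), so the 2 Fyn probe sets differ in whether they separate the lines. T cells are rich in Fyn, and the mean of 7 T and NK cell markers was 6.07 to 6.26 in Met1 and 6.15 to 6.49 in DB7, with the groups overlapping.

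Shc1, the adaptor that middle T recruits through a phosphorylated tyrosine, did not pass at either probe set. The brighter, 1422854_at, measured 8.39, 8.21 and 8.20 in Met1 and 8.52, 8.43, 8.18 and 8.45 in DB7. DB7 3 had the lowest value of all, so the groups overlapped. The difference was -0.13 (95% confidence interval -0.36 to 0.10; limma, adjusted p = 0.384), and that of 1422853_at was -0.11 (adjusted p = 0.51).

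Grb2, the adaptor that couples phosphorylated Shc to the Ras exchange factor Sos, was lower in Met1. Probe set 1449111_a_at measured 9.36, 9.15 and 9.16 in Met1 and 9.92, 10.10, 10.08 and 10.13 in DB7. The gap between the groups was wider than the range inside either of them. The difference was -0.83 (SE 0.09; limma, adjusted p = 0.000264), a 1.78-fold lower level. At the second probe set, 1418508_a_at, Met1 measured 8.91, 8.67 and 8.74 and DB7 9.08, 9.15, 8.91 and 8.97. Here Met1 1 and DB7 3 nearly met, and the difference of -0.25 (SE 0.10; limma, adjusted p = 0.0743) did not pass. The files do not say which parts of the transcript the probe sets cover, and both carry the suffix for alternative transcripts of 1 gene. The difference at 1449111_a_at lay between -0.90 and -0.79 when single arrays were left out, and passed each time. The epithelial marker mean was also lower in Met1, by 0.38, through Krt7, Krt18, Epcam and Krt8 and not the other markers. The part of epithelial content in the Grb2 value was not tested.

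Pik3r1 gave the largest difference of the 9 genes. It encodes the regulatory subunit of PI3K, whose SH2 domains bind phosphorylated tyrosines and which stabilises and restrains the catalytic subunit. Probe set 1425514_at measured 8.06, 7.67 and 7.37 in Met1 and 5.99, 6.21, 6.005 and 6.13 in DB7. All Met1 arrays lay more than 1 log2 unit above all DB7 arrays. The difference was 1.62 (SE 0.15; limma, adjusted p = 9.87e-05), or 3.07-fold. This probe set was below the median on all 4 DB7 arrays and passed the filter through Met1 alone, so its being tested and its difference are not independent.

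The other 2 Pik3r1 probe sets passed the filter on all arrays. At 1425515_at Met1 measured 8.69, 8.49 and 8.24 and DB7 7.17, 7.30, 7.19 and 7.52, a 2.26-fold difference of 1.18 (SE 0.12; limma, adjusted p = 0.000193). At 1451737_at Met1 measured 9.03, 8.38 and 8.39 and DB7 7.58, 7.63, 7.83 and 7.61, a 1.91-fold difference of 0.94 (SE 0.16; limma, adjusted p = 0.00241). Neither pair of groups overlapped. Met1 1 was the highest array at all 3 probe sets. Without Met1 1 the differences were 1.43, 1.07 and 0.72, and all 3 still passed. They also passed without DB7 1 and DB7 4, under median centring and in each fit that left out 1 array. The platform annotation ties the 3 probe sets to the same sequence record, so which of the 2 starts shown above gave the signal cannot be read from these data.

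Pik3ca, the catalytic subunit that pairs with the product of Pik3r1, went the other way by a small amount. At 1423144_at Met1 measured 6.99, 6.88 and 6.94 and DB7 7.13, 7.33, 7.49 and 7.08 (difference -0.32, SE 0.11; limma, adjusted p = 0.0475). At 1460326_at Met1 measured 7.18, 7.21 and 6.95 and DB7 7.61, 7.34, 7.48 and 7.29 (difference -0.31, SE 0.10; limma, adjusted p = 0.0466). The groups did not overlap at either, and both differences were close to 1.25-fold. Neither call held under median centring (adjusted p = 0.0747 and 0.0719). The first was lost without Met1 1 (limma, adjusted p = 0.0902), Met1 2 (0.15), Met1 3 (0.122), DB7 2 (0.0912) or DB7 3 (0.0867). The second was lost without Met1 1 (0.0797), Met1 2 (0.0717), Met1 3 (0.185), DB7 1 (0.0836), DB7 2 (0.0522) or DB7 3 (0.1). Both differences kept their sign in all of these fits.

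**Figure D2:**
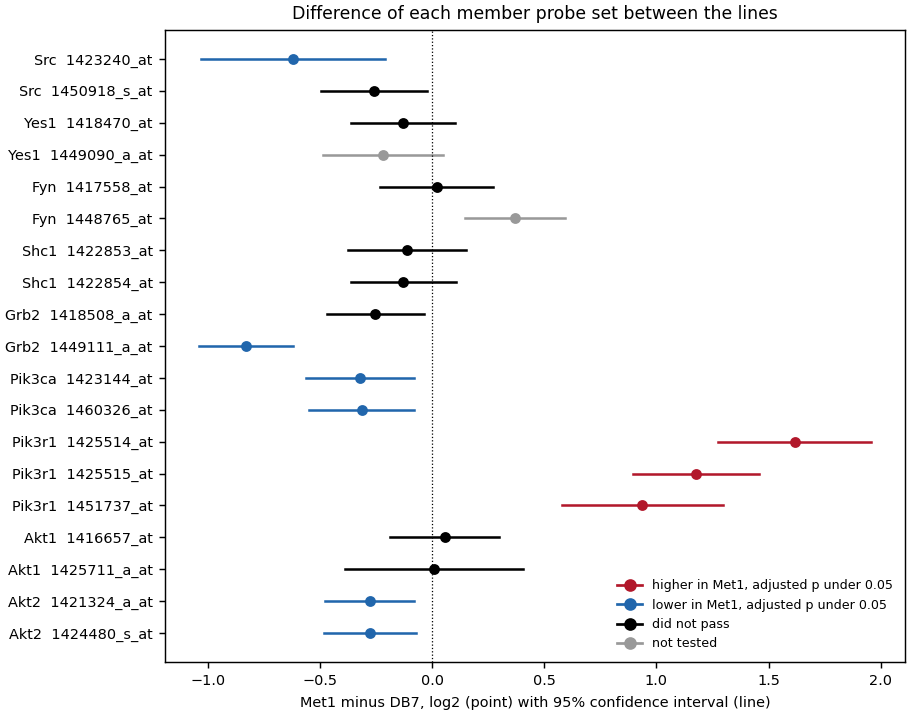
Difference between the lines (horizontal axis, Met1 minus DB7, log2) for each member probe set, with its 95% confidence interval; red and blue mark adjusted p under 0.05, black did not pass and grey was not tested. The 3 Pik3r1 intervals lie between 0.58 and 1.96, and that of Grb2 1449111_a_at between -1.04 and -0.62.

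The Akt kinases, which act below PI3K, differed from each other in their calls, and the difference between them was not tested. Akt1 at 1416657_at measured 9.26, 9.22 and 9.36 in Met1 and 9.22, 9.26, 8.999 and 9.41 in DB7, with the groups overlapping throughout. The difference was 0.06 (95% confidence interval -0.19 to 0.30; limma, adjusted p = 0.734). At 1425711_a_at it was 0.01 (95% confidence interval -0.39 to 0.40; limma, adjusted p = 0.979), with a wide DB7 spread from 7.92 in DB7 3 to 8.71 in DB7 2.

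Akt2 was 1.21-fold lower in Met1 at both of its probe sets. At 1424480_s_at Met1 measured 8.52, 8.48 and 8.45 and DB7 8.85, 8.64, 8.66 and 8.89 (difference -0.28, SE 0.09; limma, adjusted p = 0.0456). The suffix of this probe set marks sequence shared with other transcripts. At 1421324_a_at Met1 measured 6.71, 6.59 and 6.63 and DB7 7.01, 6.87, 6.77 and 7.03 (difference -0.28, SE 0.09; limma, adjusted p = 0.0399). In both, DB7 1 and DB7 4 were the highest arrays, and all DB7 arrays lay above Met1. Without these 2 arrays the differences were -0.17 and -0.18 and did not pass (limma, adjusted p = 0.172 and 0.189), and they did not pass under median centring (0.0657 and 0.0577). The first was lost without Met1 1 (limma, adjusted p = 0.0889), Met1 2 (0.125), Met1 3 (0.15), DB7 1 (0.0791), DB7 3 (0.0501) or DB7 4 (0.094). The second was lost without Met1 1 (0.0633), Met1 2 (0.132), Met1 3 (0.121), DB7 1 (0.0761) or DB7 4 (0.0891).

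Genes whose level followed a member most closely over the 7 arrays were found by the root mean square distance between profiles, each centred on its own mean. This is a description over 7 arrays that share 2 groups. Aurka, a mitotic kinase gene, lay nearest to Grb2 1449111_a_at at a distance of 0.0266 log2 units, and was lower in Met1 by 0.87, followed by Mfsd1 at 0.0573. For Pik3r1 1451737_at the nearest were Unc119 at 0.094 and Baiap2 at 0.107, with differences of 0.87 and 1.02. For Akt2 1424480_s_at they were Stard3nl (0.0402) and Epb41l1 (0.0459), and for Src 1450918_s_at Zfp777 (0.0484) and Rttn (0.0539).

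Around the members, 81 further pathway genes were tested, of 127 listed, in 5 lists that hold no member. By the brightest tested probe set, 14 were higher in Met1, 7 lower and 60 did not pass (25.9% called, beside 30.9% of all genes). The median difference was 0.06, against -0.04 over all genes, and the median absolute difference 0.13 against 0.18. On the array were 99 of the listed genes, and listed genes that were not tested are not analysed here.

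Of 14 tested genes in the list of Src family kinases and their regulators, 2 were higher in Met1 and none lower (14.3% called, median 0.04). Ptpre, a receptor-type tyrosine phosphatase that can act on Src, measured 7.33, 6.83 and 7.19 in Met1 and 5.97 to 6.42 in DB7, a 1.78-fold rise (limma, adjusted p = 0.00308). It lay below the median on all 4 DB7 arrays and was tested through Met1 alone, so its call and the count of 2 are not independent of the filter. Pxn, the focal adhesion adaptor paxillin, rose 1.44-fold (limma, adjusted p = 0.0306), but its call was lost without Met1 1 (0.0795), Met1 2 (0.107), Met1 3 (0.0779) or DB7 2 (0.0652). The suffix of the Pxn probe set that passed marks sequence shared with other transcripts. The other tested probe sets of Pxn differed by 0.25 and 0.15 and did not pass. Csk, the kinase that phosphorylates the inhibitory tail of Src kinases, differed by -0.09 (SE 0.09), with a sign that turned without DB7 1 and DB7 4 (0.01). The phosphatase gene Ptpn11 differed by -0.12 (SE 0.08). Neither passed.

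Protein phosphatase 2A is the enzyme whose scaffold and catalytic subunits middle T binds, and 5 of its 14 tested genes passed, 3 higher and 2 lower (35.7% called, median -0.06). The regulatory subunit genes Ppp2r5b, Ppp2r3c and Ppp2r5c rose 1.91-fold, 1.69-fold and 1.62-fold (limma, adjusted p = 0.000703, 0.00839 and 0.00921). The 4 other tested probe sets of Ppp2r5c differed by 0.09 to 0.59. Ppp2cb, a catalytic subunit, was 1.35-fold lower, at 9.11, 8.95 and 8.92 against 9.24, 9.50, 9.50 and 9.48 (limma, adjusted p = 0.00944). Set, an inhibitor of the phosphatase, was 1.32-fold lower (adjusted p = 0.0323), a call that held in only 1 of the 7 fits leaving out an array, that without DB7 1, where adjusted p was 0.00277. It was 0.0604 without Met1 1, 0.112 without Met1 2, 0.107 without Met1 3, 0.069 without DB7 2, 0.0722 without DB7 3 and 0.0722 without DB7 4. The other tested probe sets of Set differed by -0.67 and -0.34, and 2 of its 3 probe sets were called lower. The scaffold gene Ppp2r1a did not pass, with a difference of 0.07 (SE 0.10). The catalytic gene Ppp2ca differed by 0.19 (SE 0.13) at its brightest probe set and by -0.76 (SE 0.18; limma, adjusted p = 0.0112) at its other one, so its direction depends on the probe set.

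In the list of adaptors, Ras and ERK, 3 of 20 tested genes were higher and 3 lower (30% called, median 0.05). Grb10, an adaptor of insulin and growth factor receptors, rose 1.98-fold (limma, adjusted p = 0.003). Sos2, a Ras exchange factor that binds Grb2, measured 6.91, 6.92 and 7.18 in Met1 and 5.84 to 6.54 in DB7, a 1.81-fold rise (adjusted p = 0.00367), tested through Met1 alone because all 4 DB7 arrays lay below the median. Rasa1, a Ras GTPase activating protein, rose 1.39-fold (adjusted p = 0.00438), but its other tested probe set differed by 0.16 and did not pass. Braf, a kinase that Ras activates, was 1.34-fold lower (limma, adjusted p = 0.00556), tested through DB7 alone. The calls of Sos2 and Braf, 2 of the 6 in this list, are therefore not independent of the filter. Nras was 1.32-fold lower (adjusted p = 0.0181), a call lost without any of the Met1 arrays (0.0536, 0.0685 and 0.0591 without Met1 1, 2 and 3). The other tested probe sets of Nras differed by -0.22 and -0.19 and did not pass. Grb7, an adaptor gene, was 1.44-fold lower (adjusted p = 0.0111), a call lost without Met1 2 (0.0543). Gab1, a docking protein of Grb2, differed by -0.22 (SE 0.08; adjusted p = 0.082).

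Among 26 tested genes of PI3K, Akt and mTOR signalling, 4 were higher and 2 lower (23.1% called, median 0.06). Irs1, the docking protein through which insulin and IGF receptors reach PI3K, measured 8.95, 8.76 and 8.70 in Met1 and 7.11, 6.71, 7.08 and 6.51 in DB7. Its groups lay more than 1 log2 unit apart, a 3.87-fold rise (limma, adjusted p = 3.93e-05). Sgk1, a kinase that PI3K activates, rose 3.02-fold (limma, adjusted p = 0.0014). Pik3cg, a catalytic subunit known from leukocytes, rose 1.63-fold (adjusted p = 0.00654) but was tested through Met1 alone, all 4 DB7 arrays lying below the median. Pik3ap1, an adaptor of PI3K in B cells, fell 1.7-fold (limma, adjusted p = 0.00184). The B cell marker means of DB7 1 and DB7 4 stand beside the Pik3ap1 values of 7.45 and 7.38 on these arrays and 7.34 and 7.03 on DB7 2 and DB7 3; their part was not tested. Pik3r2, which encodes another regulatory subunit of PI3K, rose 1.24-fold (limma, adjusted p = 0.038). That call was lost without Met1 1 (0.137), Met1 3 (0.0928), DB7 1 (0.0699), DB7 2 (0.0727) or DB7 4 (0.0579). Mapkap1, a subunit of the mTOR complex that phosphorylates Akt, fell 1.2-fold (limma, adjusted p = 0.046) and its other probe set differed by 0.03. Its call was lost without Met1 1 (0.0622), Met1 2 (0.133), Met1 3 (0.165), DB7 2 (0.0739), DB7 3 (0.0978) or DB7 4 (0.0647).

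The 14-3-3 proteins bind phosphorylated serine and associate with middle T. Of their 7 genes, 2 were higher in Met1 and none lower (28.6% called, median 0.11). Ywhab rose 1.55-fold and Sfn 1.5-fold (limma, adjusted p = 0.00143 and 0.00346). Sfn lay below the median on all 4 DB7 arrays and was tested through Met1 alone, so 1 of these 2 calls is not independent of the filter. The 5 other tested probe sets of Ywhab differed by -0.13 to 0.38. Ywhaq, Ywhag and Ywhaz did not pass by their brightest probe sets, with differences of 0.26, 0.11 and 0.04. Even so, 4 of 7 Ywhaq, 2 of 3 Ywhag and 3 of 6 Ywhaz probe sets were called higher in Met1, by up to 0.89, 0.62 and 0.83. Over the array 13.4% of tested probe sets were higher, and probe sets of 1 gene are not independent.

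**Figure D3:**
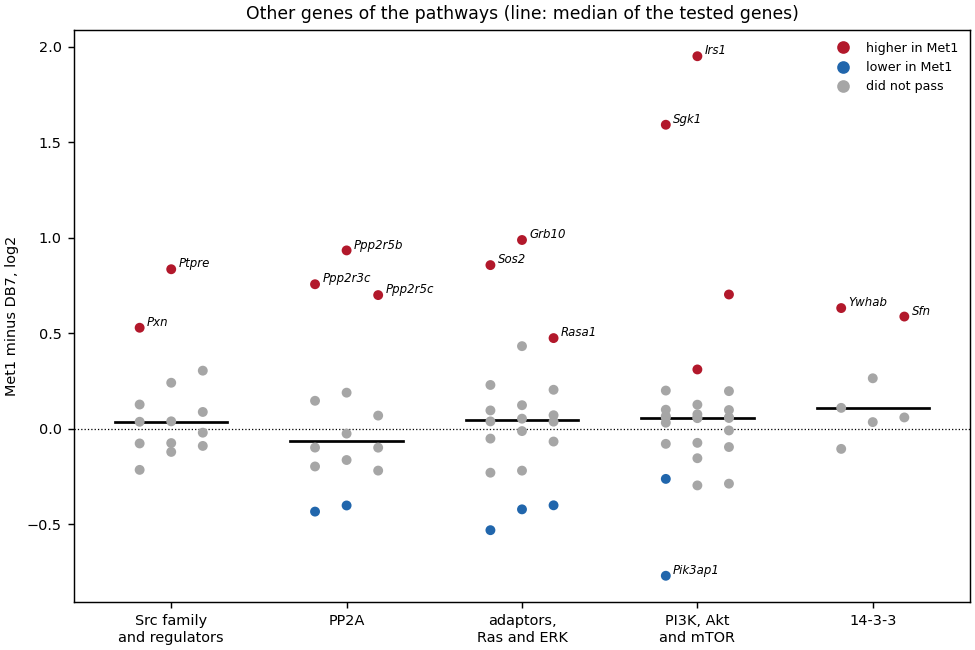
Difference between the lines (vertical axis, Met1 minus DB7, log2) of the 81 tested genes in the 5 pathway lists, 1 point a gene; red and blue mark adjusted p under 0.05, grey did not pass, and black lines are list medians. Irs1 and Sgk1 lie highest, at 1.95 and 1.59, and the list medians lie between -0.06 and 0.11.

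The 10 nearest tested genes on each side of a member, in RefSeq order, set its value beside that of its surroundings. Around Grb2, on chromosome 11, 8 of 20 neighbours were higher in Met1 and 9 lower, so 17 of 20 passed, beside 30.9% of all genes. From Jpt1 to Sap30bp the neighbours Jpt1, Nup85, Mrps7, Tmem94, Caskin2, Llgl2, Recql5 and Sap30bp were lower, by 0.53 to 1.44 (Nup85), and Grb2 lay in the middle of them. Mif4gd (-0.32) and Myo15b (-0.01) in the same stretch did not pass. On one side of it Mrpl58, Atp5h and Kctd2 were higher in Met1 by 1.19, 0.98 and 1.00, and on the other Itgb4, Wbp2 and Trim47 by 1.61, 1.11 and 1.01. Of these genes only Mrpl58 and Llgl2 were named by rule, and the others were chosen after their values were seen.

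The surroundings of Pik3r1 on chromosome 13 did not share its direction. None of its 20 neighbours was higher in Met1, 3 were lower and 17 did not pass, with a median of -0.15. Ocln, the tight junction gene occludin, was the furthest, lower by 0.95. Over all genes, 13.0% were higher in Met1, 17.9% lower and 30.9% called either way, and each count of neighbours stands beside these shares. Around Pik3ca and Shc1, both on chromosome 3, 9 of 20 neighbours of each were lower and 2 higher, with medians of -0.22 and -0.28. Around Akt1, on chromosome 12, 6 of 20 were higher and none lower (median 0.18), while Akt1 itself gave no call. The share called either way there was close to the 30.9% over all genes. All 6 calls were in 1 direction, whereas 13.0% of all genes were higher and 17.9% lower. Of each gene's 20 neighbours, 3 of Src, 2 of Shc1, 2 of Pik3ca, 1 of Fyn and 1 of Akt1 were tested through 1 line alone, and none of Grb2 or Pik3r1. For Src, Yes1, Fyn and Akt2 the medians lay between -0.08 and 0.01, with 4 to 8 of 20 neighbours called, around the share over all genes.

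**Figure D4:**
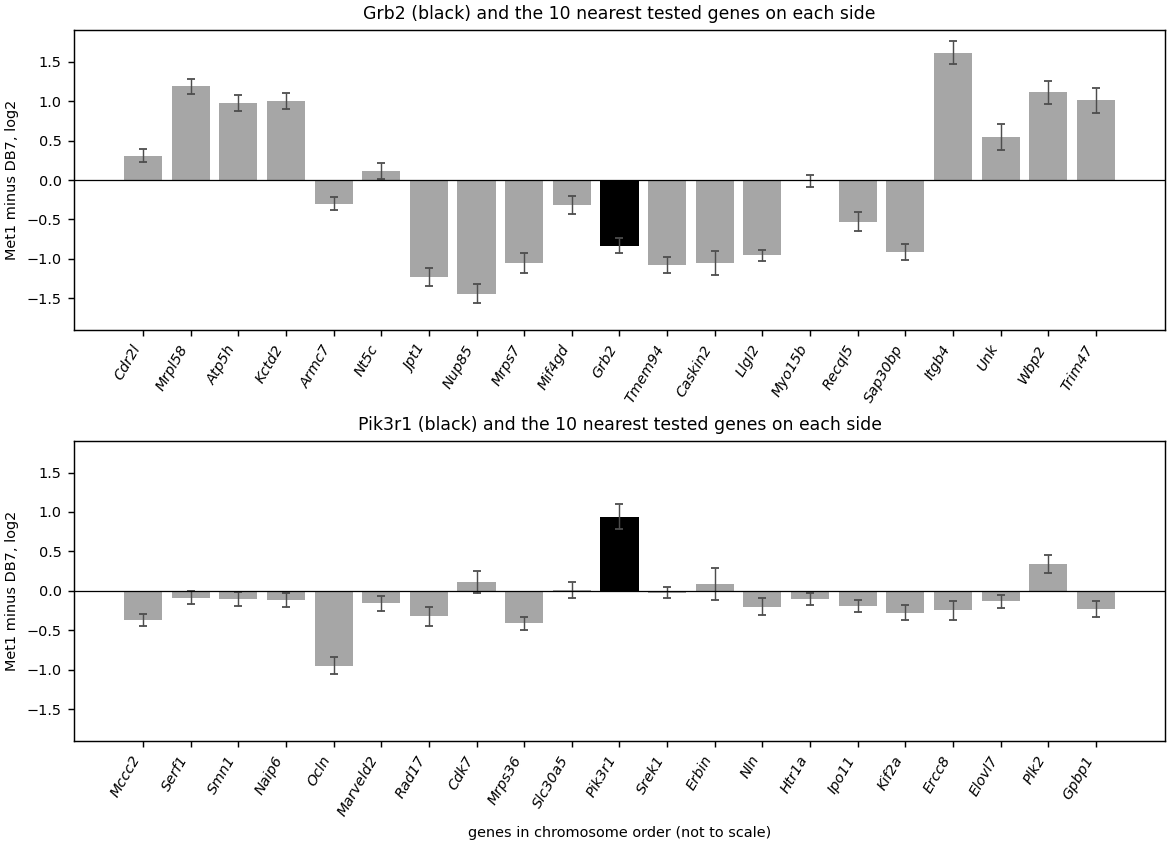
Difference between the lines (vertical axis, Met1 minus DB7, log2, error bars SE) of Grb2 and Pik3r1 (black) and their 10 nearest tested genes on each side (grey), in chromosome order and not to scale. Grb2 (-0.83) lies inside a stretch of lower genes with higher genes on both sides, and Pik3r1 (0.94) stands among neighbours of which none passed as higher in Met1.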

How the data were processed

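Total RNA of 3 Met1 and 4 DB7 transplant tumours had been extracted with Trizol and labelled by the Affymetrix procedure, per the labels' protocols. The authors deposited 1 summary per probe set, whose range fits a log2 scale. That base was inferred and all folds rest on it; the sources used here state neither the base nor software versions. RMA and MAS5 are both named in the submitters' processing notes, with no role for either. Such summaries compress folds near the floor. The number of arrays limits the precision.

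The 64 control probe sets were left out. GEO's platform annotation gave 1 symbol to 20380 of the remaining probe sets, several to 691 and none to 1555. Values were used as deposited. The lines were compared in R 4.3.3 by limma 3.58.1, with lmFit on all 7 arrays and the line as sole covariate, eBayes with a trend on intensity, two-sided tests, Benjamini-Hochberg adjustment over the 11704 tested probe sets and a threshold of 0.05. Probe sets that were not tested have a difference and SE from the same fit without the filter. A gene's brightest tested probe set stood for it in lists and neighbourhoods. The fit was tested on simulated data. Of 12393 annotated genes, 12369 were found in the RefSeq table of GRCm38.p6, used for order and names.

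The members, lists and alternatives were chosen with earlier results of these data known. Genes named are all members, up to 3 genes of each pathway list with the smallest p among called genes without overlap of the groups (all called genes where a list had 3 or fewer), the 2 profiles nearest to the member with the smallest p in each role, and up to 2 neighbours of a member. Named outside this rule, after their values were seen, were Csk, Ptpn11, Ppp2cb, Set, Ppp2r1a, Ppp2ca, Braf, Nras, Grb7, Gab1, Pik3cg, Pik3r2, Mapkap1, Ywhaq, Ywhag, Ywhaz and most neighbours.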

Additional observations from a re-analysis of the deposited data

Results flagged for a closer look

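Yes1 at probe set 1418470_at was higher in DB7 2 (7.23) than in the 3 other DB7 arrays (6.90 to 6.92). The gap to the nearest array was 0.956 of the whole range, above Dixon's 95% critical value for 4 samples. For untied values from a normal distribution, chance alone passes that value in about 1 of 20 groups. DB7 3 and DB7 4 held the same value, 6.9173, so that rate is not exact here. In DB7, 19 member probe sets were examined. The 3 Met1 arrays are too few for this check. Leaving out DB7 2 moved the difference of this probe set from -0.13 to -0.05.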

How the results depend on the processing

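The 2 probe sets that were not tested kept their direction in 20 of 20 alternatives. The 3 rises of Pik3r1 and the fall of Grb2 1449111_a_at passed in each alternative that tested them; the stricter intensity filter left out Pik3r1 1425514_at. Over the alternatives of the 17 tested member probe sets, 222 of 279 kept their direction and their side of the threshold, 48 lost the call, 1 gained it (Grb2 1418508_a_at with array weights, adjusted p = 0.0478) and 8 turned sign, all of them of Akt1 or Fyn. These were Akt1 1425711_a_at with the replicate block (-0.0311) and without Met1 1, DB7 3 or DB7 4 (-0.14 to 0.119 over the fits leaving out 1 array), Akt1 1416657_at without DB7 3 (-0.0196 to 0.1189), and Fyn 1417558_at without Met1 3, DB7 2 or DB7 3 (-0.036 to 0.1034). Csk turned sign without DB7 1 and DB7 4 (0.0063). The count of lower member probe sets was 6 in the comparison reported. It was 7 with array weights, 6 with robust estimation, 5 with probe sets free of shared sequence marks and 4 without the intensity trend. It was 3 under quantile normalization and 2 under median centring, without the intensity filter and under the stricter filter. It was also 2 with the replicate block and without DB7 1 and DB7 4, and 1 to 3 when single arrays were left out. The higher count was 4 without the filter (with Fyn 1448765_at, which was called there), 2 under the stricter filter and 3 in the other alternatives. The Src family list had 4 genes called under median centring, 4 with array weights, 4 without DB7 1 and DB7 4, 1 under the stricter filter, 1 with probe sets free of shared sequence marks, and 1 to 3 when single arrays were left out, against 2. The stricter filter, which tested fewer probe sets, called 3 genes of the adaptor and Ras list against 6, 1 of the 14-3-3 list against 2, and 997 higher and 1300 lower probe sets over the array against 1566 and 2060. The 14-3-3 list had 4 with the mean of all tested probe sets of a gene. Counts when single arrays were left out were 4 to 8 for the adaptor and Ras list, 4 to 5 for PI3K and for phosphatase 2A, 2 to 3 for 14-3-3, and 1161 to 1597 higher and 1289 to 2205 lower over the array. Replicate numbers did not pair the samples (correlations of deviations -0.17, -0.05 and 0.02). With the number as a block, phosphatase 2A had 3 genes called against 5, and 1315 higher and 1488 lower probe sets were called over the array. The cause of these changes was not tested.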
